A study of Homo sapiens with 2 samples.

Results

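The zinc finger genes of chromosome 19 were examined for open chromatin in B2B cells, by ATAC-seq, an assay that tags accessible DNA with a transposase (Tn5) and sequences the tagged fragments. The genes were taken from the GENCODE 44 annotation as the protein-coding genes of chromosome 19 whose symbol is ZNF, a number and at most 1 letter, which gave 246 members of 20007 protein-coding genes. B2B is BEAS-2B, an immortalized line of human bronchial epithelial cells, labelled wild type (WT), with no treatment named in the labels, and it was profiled in 2 replicates. The labels do not say whether these came from separate cultures, so the spread between them may be technical. A line is a single culture-adapted source and was not compared with other cells here. In these cells 1 of 12 epithelial marker genes (KRT18) and 9 of 12 mesenchymal marker genes had a promoter peak in each list, against 52.3% of all protein-coding genes. The promoters of CDH1 and EPCAM, which define epithelial cells, had none, and KRT8 had a peak in replicate 2 alone. The 2 lists were not matched for promoter CpG.

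The peak lists were called on each replicate separately and held 28735 and 36162 peaks, of which 772 and 1074 lay on chromosome 19. A peak carries a fold enrichment, the fragments at its summit over the local background with 1 added to each, and the least number of fragments at a called summit was 16 in replicate 1 and 13 in replicate 2. The promoter window reached 1 kb up and down from the canonical transcription start site (TSS), and "open" below means that a peak overlapped it in both lists. Promoter values are those of the highest peak in the window in each list, and these peaks need not overlap each other. A promoter without a peak was below the calling threshold, which is not the same as closed.

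C2H2 zinc finger proteins bind DNA through tandem fingers, each a short loop held by a zinc ion between cysteines and histidines. Most of those encoded on chromosome 19 also carry a KRAB box, which binds TRIM28 and through it brings SETDB1 and HP1 proteins to silence chromatin, in particular at transposable elements. The genes arose by repeated tandem duplication, so they stand in clusters of relatives with similar sequence, and their 3′ exons are known to lie in H3K9me3 chromatin. In the proteins translated from the canonical transcripts the number of fingers ran from 1 to 36 with a median of 12, and ZNF208 had the most. A sequence pattern for the KRAB box matched 203 members, which is a lower count than the true one where a canonical transcript lacks that exon.

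Of the 246 members, 134 had an open promoter (54.5%, 95% Wilson interval 48.2 to 60.6), against 52.3% of all protein-coding genes, so the share was near the background. A further 34 had a peak in 1 replicate, 29 of them in replicate 2, and 78 had none. Replicate 1 alone gave 56.5% and replicate 2 alone 66.3% (61.4% ± 6.90, SD, n = 2), where all protein-coding genes gave 53.2% and 58.0%. The other 1230 genes of chromosome 19 were open in 33.7% (31.2 to 36.4), and the 262 ZNF-named genes of other chromosomes in 70.6% (64.8 to 75.8). The intervals of the 3 sets did not overlap for peaks in both lists. In replicate 2 alone the members (60.1 to 71.9) overlapped the ZNF-named genes elsewhere (71.6 to 81.8), and their interval lay above the 58.0% of all protein-coding genes. These shares are descriptions, as no groups of samples were compared.

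**Figure D1:**
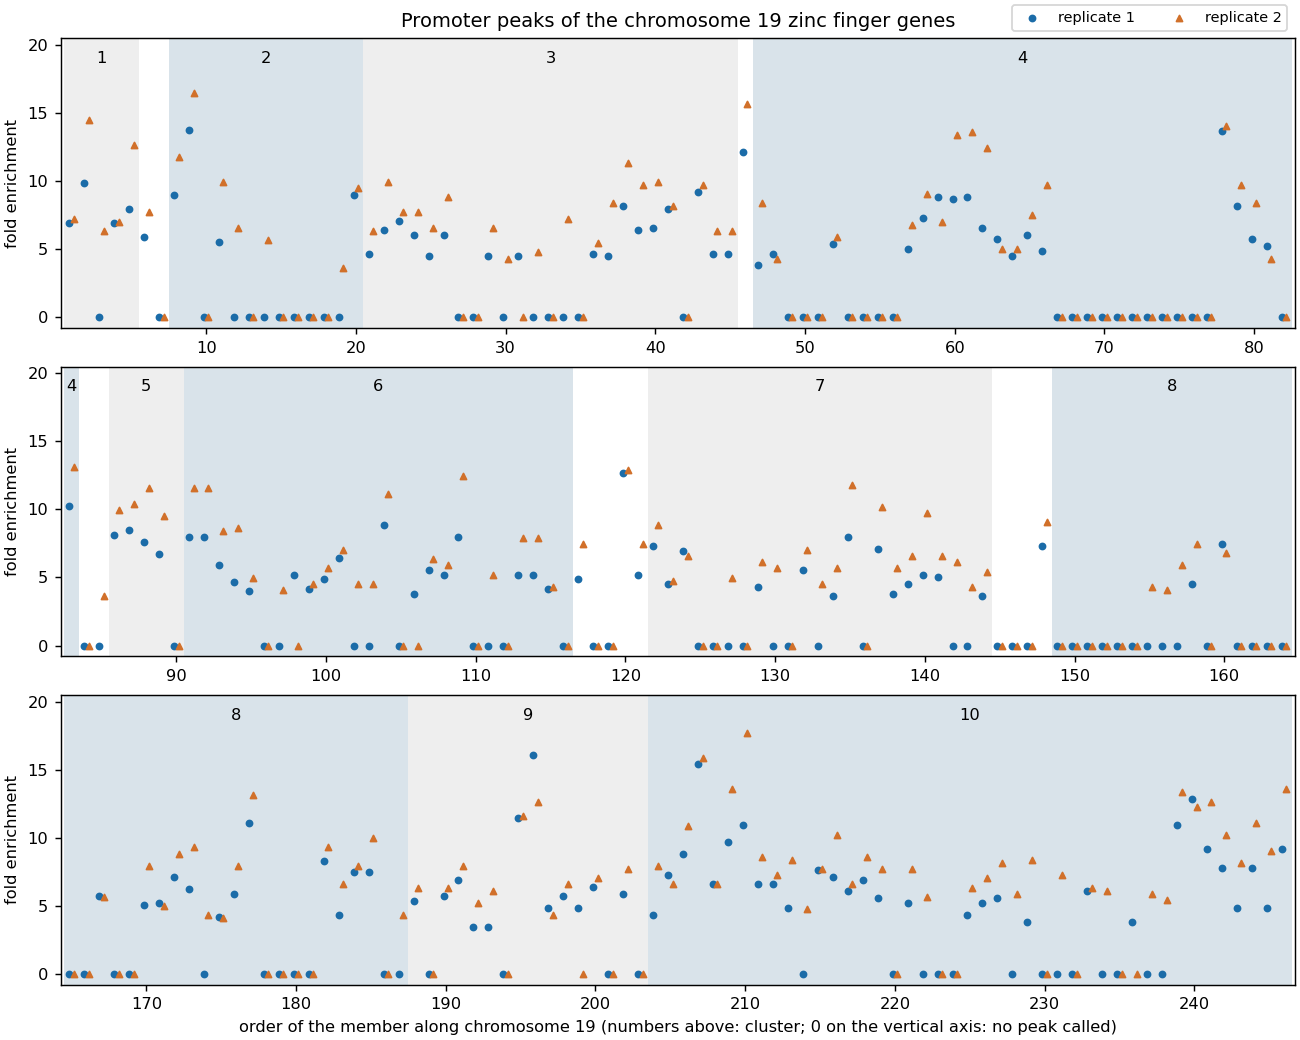
Fold enrichment of the highest promoter peak of each of the 246 members, in order along chromosome 19 and split over 3 rows, for replicate 1 (circles) and replicate 2 (triangles). Shading marks the 10 clusters, and a value of 0 means that no peak was called. In cluster 4 every member has either both values above 0 or both at 0.

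The open promoters of members had weak and narrow peaks. Over the 134 open members, fold enrichment had a median of 6.06 in replicate 1 and 7.94 in replicate 2 (7.004 ± 1.33, SD, n = 2), where the open promoters of all protein-coding genes had 8.14 and 9.64. The median peak was 268.5 and 364 bp wide, with 34 and 34.5 fragments at the summit, whereas for all protein-coding genes the summit held 47 and 46 fragments. The ZNF-named genes of other chromosomes were at 8.03 and 9.80 in fold enrichment, and the other genes of chromosome 19 at 6.41 and 8.14. The lower strength was thus seen for open promoters of chromosome 19 as a whole, members or not. Between the replicates the fold enrichments of the 134 members had a Spearman rho of 0.783 and a Pearson r of 0.796 on the log2 scale, as a description over genes that share both libraries. Replicate 2 was higher for 120 of the 134. The median summit lay 67 and 68.5 bases upstream of the TSS, and 101 of the 134 had their summit upstream in both replicates.

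ZNF543 in cluster 10 had the strongest promoter, at 15.4 in replicate 1 and 15.9 in replicate 2 (15.6 ± 0.311, SD, n = 2), from 88 and 69 fragments. ZNF558 followed with 13.8 and 16.5, and its peaks were the widest among these, at 998 and 905 bp. ZNF444, which carries a SCAN domain in place of a KRAB box, had 16.1 and 12.6. All 3 were strong in both libraries. ZNF548 had 10.9 and 17.7, a spread of 4.78 (SD, n = 2), so its rank rests mainly on replicate 2. ZNF333 had 12.1 and 15.6, and ZNF724 of cluster 4 had 13.7 and 14.05. At the other end of the open members, ZNF888 had 4.16 and 4.08, ZNF607 4.16 and 4.30, and ZNF784 3.47 and 5.21. The values of ZNF784 came from separate peaks, with summits 325 bases downstream of the TSS in replicate 1 and 41 upstream in replicate 2. ZNF850, ZNF529 and ZNF14 also had a mean under 4.5, all from 18 to 26 fragments at the summit, close to the least that was called.

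The windows from 140 bases before to 10 bases into the transcript are shown for the 3 strongest promoters, since they share no arrangement of the letters searched. They are hg38, 5′ to 3′ on the strand of the gene: chr19:57320332-57320481 (plus strand) for ZNF543, chr19:8832295-8832444 (minus strand) for ZNF558 and chr19:56141147-56141296 (plus strand) for ZNF444. Capitals mark CCAAT, the core of the NF-Y box, and CCGGAAG, a core bound by ETS factors, or their reverse complements ATTGG and CTTCCGG.
ZNF543: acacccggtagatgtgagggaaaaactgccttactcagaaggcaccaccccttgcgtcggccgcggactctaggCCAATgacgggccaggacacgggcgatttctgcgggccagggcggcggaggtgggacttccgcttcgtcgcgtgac
ZNF558: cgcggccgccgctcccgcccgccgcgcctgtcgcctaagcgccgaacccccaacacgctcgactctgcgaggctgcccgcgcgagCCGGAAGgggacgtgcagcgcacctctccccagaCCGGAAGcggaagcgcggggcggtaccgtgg
ZNF444: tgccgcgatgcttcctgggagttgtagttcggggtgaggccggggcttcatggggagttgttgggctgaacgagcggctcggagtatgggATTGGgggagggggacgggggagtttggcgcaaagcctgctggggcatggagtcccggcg
ZNF558 carried CCGGAAG at 2 places, and the windows held 15, 26 and 11 CpG in that order.

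The 34 members with a peak in 1 list only had low values. The 29 seen only in replicate 2 ran from 3.62 to 7.25 with a median of 4.98, from a median of 21 fragments, and the 5 seen only in replicate 1 from 3.81 to 5.20. The highest were ZNF417 and ZNF20 at 7.25, ZNF559 at 6.57, ZNF556 at 6.34, and ZNF285 and ZNF606 at 6.12, all in replicate 2. ZNF841, ZNF587B and ZNF274 were at 5.89, and ZNF266, ZNF230 and ZNF551 shared the next value, 5.66. ZNF274 is known for recruiting SETDB1 to the 3′ exons of other zinc finger genes. Its call in replicate 2 rested on 25 fragments, so whether its promoter is open was not settled by these lists.

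Members with a known role were on both sides. ZNF91, which silences SVA elements, was open with 8.14 and 9.74. ZNF93, which silences L1 elements, had no peak in either list at any annotated TSS. ZNF85 was open with 7.28 and 9.06, while its relatives ZNF43 and ZNF208 had no peak. ZNF146, a protein made almost only of fingers, had 7.97 and 11.6 and shares its promoter peak with ZNF565. ZNF224, a KRAB repressor of the aldolase A gene, was near the lower limit with 3.64 and 5.66. Of 3 genes known for promoter methylation in carcinomas, ZNF154 and ZNF671 had no peak, although their promoters held 58 and 59 CpG in 1 kb, and ZNF582 had 4.85 and 4.30. ZNF331, an imprinted gene with several start sites, had a canonical promoter peak in replicate 2 alone (4.30), but a peak at another of its start sites in both (5.89 and 10.4). ZNF507 had 3.62 in replicate 2 alone, and ZNF536, known from neurons, with 12 promoter CpG and the longest body, had none.

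A new cluster began where the start sites of neighbouring members lay more than 500 kb apart. Runs of at least 5 members were numbered from 1 to 10 along the chromosome, which left 14 members outside. The share of open members ran from 30.8% to 80.0%. Clusters 1 (ZNF554 to ZNF77) and 5 (ZNF302 to ZNF792) each had 4 of 5 open, with intervals from 37.6% to 96.4% that span most values. Among the larger ones, cluster 9 had 11 of 16 (68.8%) and cluster 10, from ZNF264 to ZNF446 at the end of the long arm, 29 of 43 (67.4%, 52.5 to 79.5). Cluster 3 had 16 of 25, cluster 6 had 15 of 26 and cluster 7 had 13 of 23. The lowest were cluster 2 with 4 of 13 and cluster 8, from ZNF175 to ZNF331, with 14 of 39 (35.9%, 22.7 to 51.6). The intervals of clusters 8 and 10 did not overlap, and those of the others reached into each other. They count related neighbours as independent, so they may be too narrow. In cluster 8 the list of replicate 2 alone gave 48.7%, and in cluster 10 83.7%, so the order of these 2 held in either list.

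**Figure D2:**
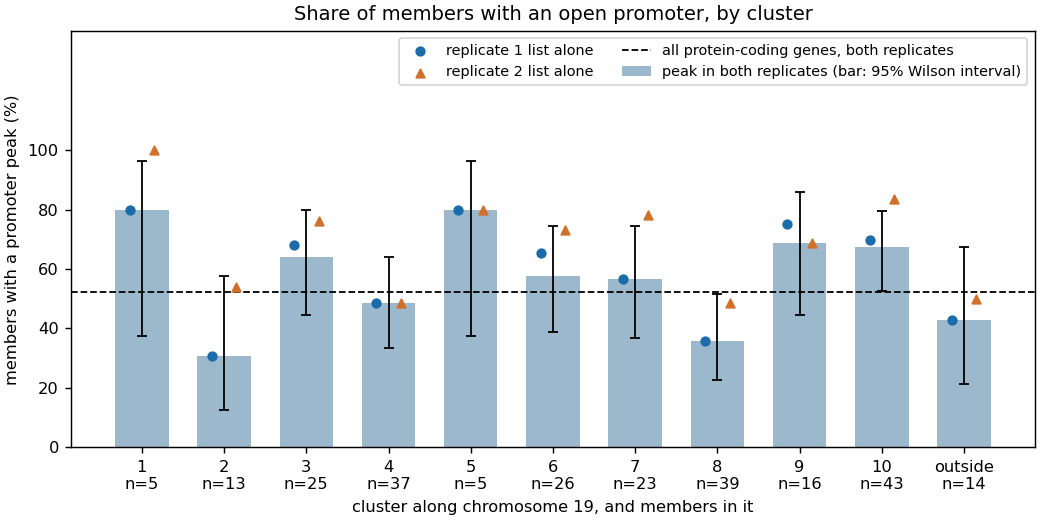
Share of members with a promoter peak in both replicates (bars, with 95% Wilson intervals) for the 10 clusters and the 14 members outside them, and in each list alone (points). The dashed line is the share of all protein-coding genes, 52.3%, which lies just below the interval of cluster 10 and just above that of cluster 8. The intervals count related neighbours as independent.

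Clusters 8 and 10 were alike in some measures and not in others. The median number of fingers was 13 and 11, the KRAB pattern matched 38 of 39 and 37 of 43, and CCGGAAG was present in 61.5% and 62.8% of their promoters. The median CpG count within 500 bp of the TSS was 57 and 67, and CCAAT was found in 28.2% and 69.8%. The median gene length was 28.5 and 13.5 kb, and the median share of 50-base words that occur elsewhere in the genome 3.18% and 0.666%. The part of these differences in the shares was not tested. In cluster 8, runs of 6 neighbours without a peak in either list stood at both ZNF175 to ZNF615, over 436.9 kb, and ZNF480 to ZNF578, over 156.4 kb. In cluster 10 the 10 members from ZNF264 to ZNF772 were all open over 286.1 kb, as were the 8 from ZNF8 to ZNF446. ZNF154 and ZNF671 were the longest run there without a peak.

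Cluster 4, from ZNF101 to ZNF254, was the longest with 4.46 Mb and 37 members. Here the lists gave the same answer for every member: 18 had a peak in both, 19 in neither and none in 1 list. The members fell into runs along the chromosome. From ZNF66 to ZNF100, 10 neighbours were open over 991.3 kb, with mean fold enrichments from 4.74 to 11.2. They include ZNF430 (8.84 and 7.02), ZNF714 (8.66 and 13.4), ZNF431 (8.84 and 13.6) and ZNF708 (6.58 and 12.5). Next to them, 11 neighbours from ZNF43 to ZNF730 had no peak at the promoter. Between the first and last TSS of that run, over 1281 kb, neither list had a peak at any position. The stretch holds ZNF208, ZNF257, ZNF676, ZNF729, ZNF98, ZNF492, ZNF99, ZNF723 and ZNF728. Beyond it, ZNF724 and ZNF91 were open again, then ZNF675 (5.72 and 8.38) and ZNF681 (5.20 and 4.30), and after ZNF726 without a peak the cluster ended with ZNF254 (10.2 and 13.1).

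**Figure D3:**
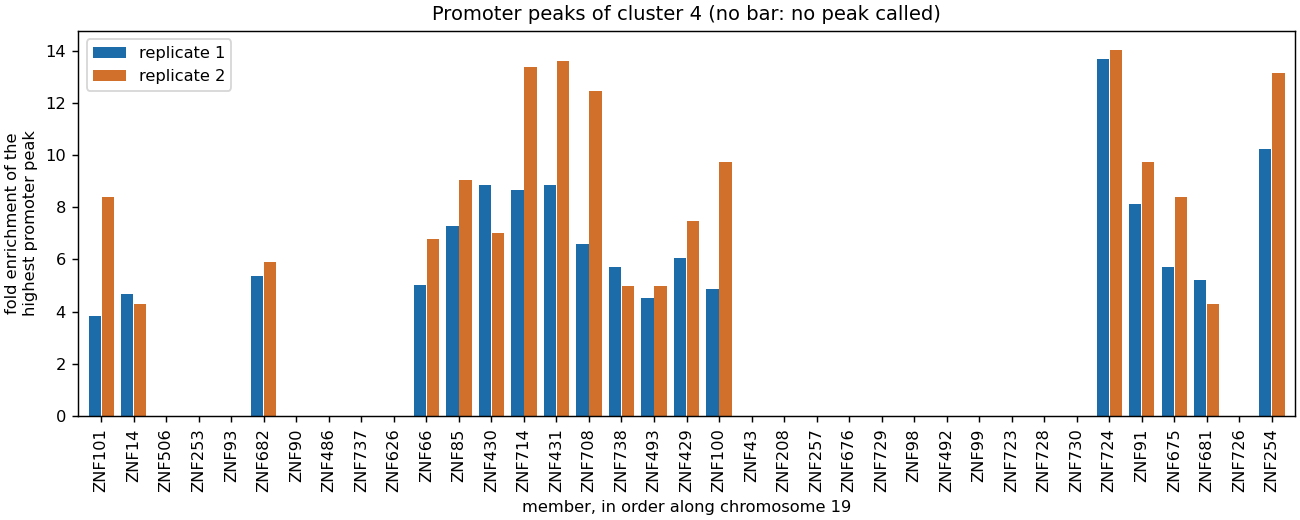
Fold enrichment of the highest promoter peak for the 37 members of cluster 4 in order along the chromosome, replicate 1 and replicate 2 side by side; a member with no bar had no peak. The 10 members from ZNF66 to ZNF100 all had peaks and the next 11, from ZNF43 to ZNF730, had none.

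The open and peakless members of cluster 4 were compared by their promoters. The median CpG count was 36.5 (29 to 64) for the 18 open and 41 (8 to 57) for the 19 without a peak. CCAAT was present in 18 of 18 and 18 of 19, 2 or more CCAAT on the gene's strand in 10 of 18 and 14 of 19, and CCGGAAG in 13 of 18 and 12 of 19. Short reads from 50-base words that occur elsewhere in the genome may be placed at the other copy. The share of such words in the promoter windows had a median of 5.23% and 5.07%. It was 5.38% and 5.89% in the open and the peakless run. The sequence between the promoters was not measured in this way. The number of fingers had a median of 12.5 and 13. Over the 666 pairs of members, the aligned windows of 150 bases were identical at a median of 76.7% of positions. The median was 68.7% for pairs of open members, 79.3% for pairs without a peak, and 76.7% for pairs of 1 of each.

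Windows of 6 members are shown because near-identical letters stood on both sides. ZNF724 (chr19:23250385-23250534, minus strand), ZNF85 (chr19:20923111-20923260, plus strand) and ZNF91 (chr19:23395462-23395611, minus strand) were open, and ZNF93 (chr19:19900806-19900955, plus strand), ZNF43 (chr19:21836173-21836322, minus strand) and ZNF98 (chr19:22422337-22422486, minus strand) had no peak. Each runs from 140 bases before to 10 into the transcript, 5′ to 3′ in hg38, with the same letters in capitals.
ZNF724: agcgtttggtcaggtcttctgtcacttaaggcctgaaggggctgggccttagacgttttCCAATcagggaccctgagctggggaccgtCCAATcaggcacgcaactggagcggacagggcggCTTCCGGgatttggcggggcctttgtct
ZNF85: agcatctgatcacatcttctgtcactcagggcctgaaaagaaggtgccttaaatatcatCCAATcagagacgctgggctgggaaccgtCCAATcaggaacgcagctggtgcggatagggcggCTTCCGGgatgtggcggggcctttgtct
ZNF91: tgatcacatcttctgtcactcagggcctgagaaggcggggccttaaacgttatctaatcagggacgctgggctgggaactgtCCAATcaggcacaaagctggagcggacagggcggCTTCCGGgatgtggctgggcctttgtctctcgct
ZNF93: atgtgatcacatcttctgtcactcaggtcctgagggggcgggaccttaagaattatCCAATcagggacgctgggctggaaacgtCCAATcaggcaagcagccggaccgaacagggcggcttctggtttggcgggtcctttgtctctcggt
ZNF43: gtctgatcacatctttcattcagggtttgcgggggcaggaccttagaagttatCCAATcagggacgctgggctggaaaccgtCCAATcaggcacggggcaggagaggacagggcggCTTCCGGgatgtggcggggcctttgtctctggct
ZNF98: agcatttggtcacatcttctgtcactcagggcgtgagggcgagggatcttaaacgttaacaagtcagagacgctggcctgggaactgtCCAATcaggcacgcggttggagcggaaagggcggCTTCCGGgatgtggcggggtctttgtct
All 6 held CCAAT followed by CAG, and 5 held CTTCCGG just before the TSS. ZNF85 and ZNF91 were identical at 85.3% of positions, and ZNF91 and ZNF43 at 84.7%. In this chosen example the open promoter of ZNF91 was about as close to a peakless as to an open one. The window of ZNF93 was 84.7% identical to that of ZNF91 and lacked CTTCCGG. Over the cluster, 13 of 25 members with these letters and 5 of 12 without them were open.

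Protein-coding genes were ranked by their CpG count within 500 bp of the TSS and divided into 10 groups of equal size, and each group of members was set beside the same group of other genes. Groups 1 and 2, with the fewest CpG, held only 5 members, none of them open. In group 3, 16 of 32 members were open (interval 33.6 to 66.4%), against 21.04% of all protein-coding genes and 4.37% of the other genes of chromosome 19. The ZNF-named genes elsewhere had 8 of 21 open in this group (38.1%, 20.8 to 59.1), an interval that overlapped that of the members. Over groups 1 to 3, cluster 4 gave 12 of 21 open and the other members 4 of 16. In group 4, 22 of 67 members were open (32.8%, 22.8 to 44.7), against 56.1% of all protein-coding genes, 33.3% of the other chromosome 19 genes and 67.6% of the ZNF-named genes elsewhere. In groups 5 and 6 the members stood at 65.3% and all genes at 70.9%, and in groups 7 to 10 at 73.2% and 73.8%. The other chromosome 19 genes were at 49.8% in groups 5 and 6 and 54.3% in groups 7 to 10. The ZNF-named genes elsewhere were at 74.3% and 83.5%. The intervals of both sets overlapped those of the members, that of the chromosome 19 genes only barely in groups 5 and 6 (43.9 to 55.71, against 55.66 to 73.9). The median CpG count was 62.5 for open members, 59.5 for those with a peak in 1 list, and 50 for those with none.

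**Figure D4:**
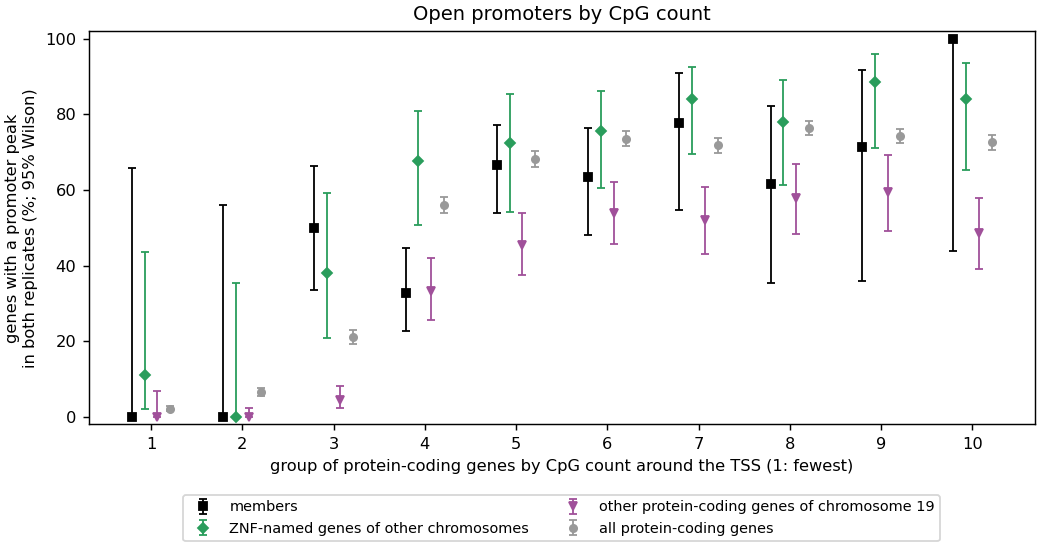
Share of genes with a promoter peak in both replicates in each of 10 equal groups of protein-coding genes by CpG count, for the members, the ZNF-named genes of other chromosomes, the other genes of chromosome 19 and all protein-coding genes, with 95% Wilson intervals. The members stand above all genes in group 3 and below them in group 4, and groups 1, 2 and 10 hold few members.

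Some members with many CpG had no peak at any annotated TSS. The 6 with the most were ZNF541 (97 CpG), ZNF358 (89), ZNF296 (87), ZNF382 (86), ZNF470 (82) and ZNF480 (80). ZNF382 and ZNF470 are KRAB genes of clusters 6 and 9. The first 5 held no 50-base word that occurs elsewhere in the genome, and in ZNF480 9.07% of the words did. The windows of ZNF382 (chr19:36605173-36605322) and ZNF470 (chr19:56567328-56567477), both on the plus strand, are given as examples of a CpG-rich window without a peak.
ZNF382: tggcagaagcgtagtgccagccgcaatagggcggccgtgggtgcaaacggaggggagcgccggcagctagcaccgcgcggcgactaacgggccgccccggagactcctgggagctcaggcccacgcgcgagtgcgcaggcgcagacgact
ZNF470: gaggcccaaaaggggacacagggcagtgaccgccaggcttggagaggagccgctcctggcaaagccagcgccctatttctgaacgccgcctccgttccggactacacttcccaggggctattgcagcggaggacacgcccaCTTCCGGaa
These held 20 and 10 CpG in 150 bases.

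Motifs were searched on both strands from 250 bases before to 50 bases after the TSS. CCGGAAG was found in 110 of 246 members (44.7%, 38.6 to 50.96), against 14.1% of all protein-coding genes and 31.7% of ZNF-named genes elsewhere. CCAAT was found in 130 members (52.8%, 46.6 to 59.0), against 36.1% of all protein-coding genes and 42.0% (36.2 to 48.0) of ZNF-named genes elsewhere, whose interval overlapped that of the members. TATAAA, the core of the TATA box, was in 2.85% of members, 9.71% of all protein-coding genes and 3.05% of ZNF-named genes elsewhere. GGGCGGG, bound by SP factors, was at 50.4% in members and 47.1% in all protein-coding genes. The letters searched for NRF1 (GCGCATGCG), YY1 (AAGATGGCG), CREB (TGACGTCA), AP-1 (TGANTCA) and ZNF143 (ACTACAA) were each in under 6% of members, and in 2.69% to 5.43% of all genes. Among them, ACTACAA was in 5.69% of members (3.42 to 9.32), 2.98% of all protein-coding genes and 4.96% of ZNF-named genes elsewhere. TGANTCA was in 5.28% of members and 5.43% of all genes. AAGATGGCG was in 3.66% and 2.84%, but in 13.8% and 4.38% when 500 bp to either side of the TSS were searched. The letters did not separate the open members from the others. CCGGAAG was in 44.03% of the open members and 43.6% of those without a peak, and CCAAT in 56.0% and 52.6%.

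The letters differed by cluster. CCAAT was in 36 of 37 promoters of cluster 4, 23 of 25 of cluster 3 and 5 of 5 of cluster 1, but in 4 of 23 of cluster 7. CCGGAAG was in 25 of 37 of cluster 4 and 24 of 39 of cluster 8, but in 2 of 25 of cluster 3. In a minority of members the letters stood in a narrow range of distances from the TSS. A CCAAT on the gene's strand started 51 to 100 bases before the TSS in 29.7% of members and in 8.29% of other protein-coding genes. CTTCCGG started within the 50 bases before the TSS in 18.7% and 2.69%.

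**Figure D5:**
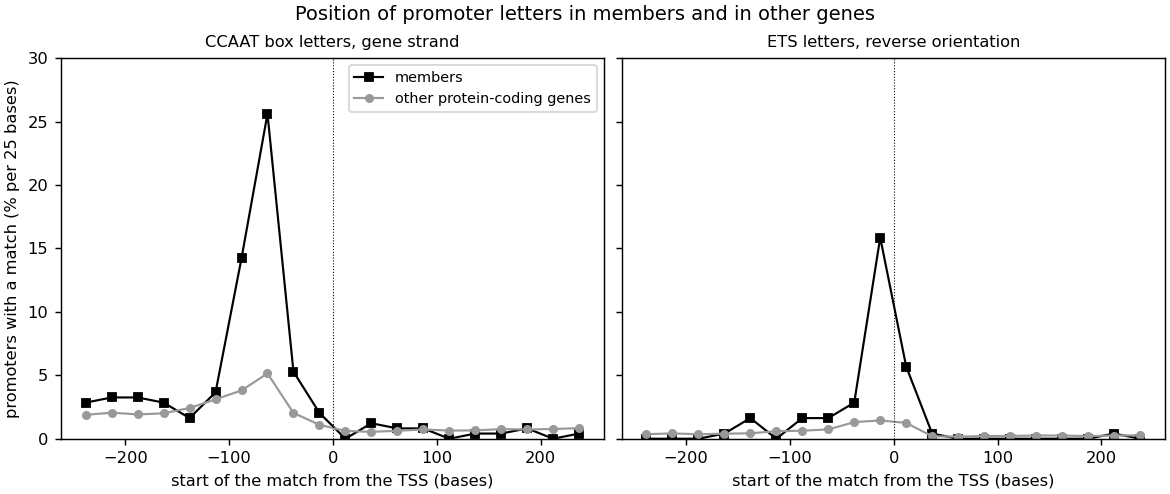
Share of promoters with a match that starts in each step of 25 bases around the TSS, for CCAAT on the strand of the gene (left) and for CTTCCGG (right), in the 246 members and in the other protein-coding genes. In members CCAAT peaked 51 to 75 bases before the TSS, at 25.6%, and CTTCCGG in the last 25 bases, at 15.9%.

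The TSS of another protein-coding gene lay within 1 kb for 25 members, and 8 of these formed 4 head-to-head pairs of members. ZNF490 and ZNF791, 107 bases apart, shared 1 peak of 4.68 and 6.34. ZNF565 and ZNF146, 441 apart, shared 1 of 7.97 and 11.6, and ZNF571 and ZNF540, 84 apart, 1 of 5.20 and 7.93. ZNF829 and ZNF568, 41 apart, shared a peak of 4.53 in replicate 2 alone. In each pair a single peak covers both start sites, so its value cannot be assigned to either gene. A peak in the window of any of the 25 may likewise belong to the other gene. The stretch from ZNF571 to ZNF540 is shown from 10 bases inside one transcript to 10 inside the other, chr19:37594783-37594885, plus strand.
ZNF571/ZNF540: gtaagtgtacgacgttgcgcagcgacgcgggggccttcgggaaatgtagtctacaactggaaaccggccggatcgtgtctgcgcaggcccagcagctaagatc
It contains 11 CpG and none of the letters marked above.

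Outside the promoters, the bodies of members held few peaks. A region with a peak in both replicates was found in 15 of 246 members (6.10%, 3.73 to 9.82), against 24.2% of all protein-coding genes. Per length of gene body, members had 2.30 such regions per Mb, all protein-coding genes 6.62, the other genes of chromosome 19 7.46 and ZNF-named genes elsewhere 5.91. Of 18 distinct regions, 11 lay within 1 kb of another annotated TSS of the same gene. A further 4 lay within 1 kb of the TSS of another gene, which leaves 3 within introns. The classes were filled in that order, so regions among the 11 could also lie at the start of another gene. Among such starts were those of ZNF345 within ZNF790, ZNF383 within ZNF585B, ZNF468 within ZNF28 and ZNF580 within ZNF581, all open members counted above. The exon was considered only for the 3 regions away from start sites. None of these lay in the last exon, which codes for the fingers, and the other regions were not classed by exon. The strongest was at a second start site of ZNF584 (14.03 and 12.01), followed by an intron of ZNF507 28.4 kb from the TSS (9.18 and 15.2) and a second start of ZNF254 (7.97 and 16.1). A second start of ZNF875 had 8.66 and 10.4, and the region shared by ZNF586 and ZNF587B 5.72 and 11.8. An intron of ZNF675, 136.9 kb from its TSS, had 5.37 and 11.3. The third intronic region was in ZNF846 (6.93 and 5.66). A further 9 regions had a peak in 1 list.

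The clusters as a whole held open chromatin mainly at start sites. They covered 14.4 Mb and had 162 regions with a peak in both replicates, which is 11.2 per Mb, against 11.9 per Mb in the rest of chromosome 19 and 8.63 per Mb in the genome. Of the 162, 8 lay more than 1 kb from any annotated TSS (4.94%, 2.52 to 9.44), against 99 of 526 in the rest of the chromosome (18.8%, 15.7 to 22.4) and 45.8% in the genome. The strongest of the 8 was between genes of cluster 4, 12.7 kb from the TSS of ZNF682, with 13.9 and 19.03. The other protein-coding genes inside the clusters, which may include zinc finger genes with symbols outside the rule, were open in 30 of 112 (26.8%, 19.4 to 35.7), and in 34.4% of 1118 outside them.

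Neither the number of fingers nor the KRAB pattern went with an open promoter beyond the intervals. The share was 54.0% with up to 9 fingers, 55.1% with 10 to 13 and 54.3% with 14 or more. It was 53.2% (46.3 to 59.9) with the KRAB pattern and 60.5% (45.6 to 73.6) without. It was 62.2% (51.4 to 71.9) for members with no copied 50-base word and 46.8% (36.03 to 57.8) where over 5% of the words were copied, and 57.9% and 34.4% for all protein-coding genes. Their part in these shares was not tested.

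The partners of KRAB proteins had open promoters for the most part. Of 20 genes of this pathway, 15 had a peak in both replicates. TRIM28, the corepressor that binds the KRAB box, was at 14.2 and 16.6. MPHOSPH8 of the HUSH complex had 12.99 and 16.3, and CBX5, which encodes an HP1 protein, 14.4 and 10.2. SETDB1, the H3K9 methyltransferase, and ATRX had no peak, and CHD4, UHRF1 and MORC2 had one in replicate 2 alone, at 3.62, 4.47 and 5.89. With 20 genes the share was 75% and its interval ran from 53.1% to 88.8%, and the share of all protein-coding genes was 52.3%. The list was not matched for CpG. In CpG groups 5 to 10 the share of all protein-coding genes was 72.8%, close to that of the whole list. The list also holds genes below these groups, such as CHD3 with 18 CpG and SETDB1 with 46, so the sets are not alike.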

How the data were processed

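ATAC-seq peak lists of 2 replicates of B2B cells were analysed. The authors mapped reads to hg38 with Bowtie2 (2.4.4), discarded duplicates by their own code, and ran MACS2 (2.2.7.1) on each replicate. SAMtools (1.13) is given for scaling samples to CPM, a unit not used here. The Tn5 shift, the q limit and the treatment of mitochondrial reads are not given in the sources used here. The deposited lists hold the fold enrichment, a linear ratio to the local background, and the authors' −log10 p and −log10 q. The deposited score repeats the −log10 q and was not used. Peaks off chromosomes 1 to 22, X and Y (139 and 157) were left out.

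Peaks were assigned by an overlap of at least 1 bp to GENCODE 44 genes, with hg38 sequence of the same build. Fragments at each summit were solved from fold enrichment and −log10 p, within 0.01 for 99.7% and 99.8% of peaks and for all member peaks; this step, the overlaps, the clusters and the word copies were tested on simulated data. The depth of the libraries is unknown, since the lists hold no totals; the median local background was 4.77 and 3.41 fragments. Proteins were translated from the canonical coding exons. A finger was C, 2 residues, C, 12 residues, H, 3 to 5 residues, H, and the KRAB pattern was widened after seeing which known KRAB genes it missed. Identity was taken from global alignments. The 95% intervals are Wilson's and allow for counting error alone. The members, lists and tests were chosen with earlier results of these data known.

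Genes were named by rule: the 6 highest and 6 lowest open members, 14 members with a known role or position, members with a peak in 1 list (up to 10, with ties), the 6 peakless members with most CpG, the 6 highest gene-body regions and the head-to-head pairs. ZNF98, the members of the runs in cluster 4, ZNF846, and the lists' genes were named after their values were seen. Alternatives were a stricter limit (−log10 q of 5 or more), lists cut to the same length by strength, each replicate alone, other windows, start sites, cluster gaps and CpG windows. Python 3.11.15, numpy 2.4.6, pandas 2.3.3, scipy 1.17.1, pysam and matplotlib 3.10.9 were used.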

Additional observations from a re-analysis of the deposited data

How the results depend on the processing

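The number of open members was 134 as reported and 123 to 139 under a −log10 q limit of 5, lists cut to the same length by strength, promoter windows of 500 bp and 3 kb, start sites of any transcript and a summit inside the window; each list alone gave 139 to 163. The median fold enrichment ran from 6.06 to 7.48. Members with a gene-body region numbered 15, and 13 to 16 under these settings and 16 to 19 in each list alone, except that 6 were left when windows around every annotated TSS were taken out, which removes most of them by construction. Taking regions near any other TSS out of the 18, an alternative chosen after seeing the data, left 3. The highest share among clusters was 80.0% and ran from 80.0% to 100% in each list alone, where replicate 2 had all 5 members of cluster 1. The lowest share was 30.8% in cluster 2 and 48.6% in cluster 4 without replicate 1. With a cluster gap of 250 kb the lowest was 18.2% and the highest 81.8%, in a part of cluster 4. Open regions per Mb in the clusters numbered 11.2, and 12.4 to 15.5 in each list alone. In the wider window of 500 bp to either side more promoters matched by construction: 53.3% of members for CCGGAAG, 74.8% for CCAAT, 69.1% for GGGCGGG, 13.8% for AAGATGGCG, 14.2% for TGANTCA, 9.35% for ACTACAA and 25.2% for TATAAA, against 22.4%, 63.8%, 63.2%, 4.38%, 15.3%, 7.49% and 23.3% of all protein-coding genes. The rise was not alike in both sets for every motif. AAGATGGCG went from 3.66% to 13.8% of members, and from 2.84% to 4.38% of all protein-coding genes. TATAAA went from 2.85% to 25.2% of members, and from 9.71% to 23.3% of all protein-coding genes. The reason was not tested. No paired analysis was possible because there was 1 group. Peaks near the threshold depend on depth, which was not known, and a promoter without a peak may be open below it.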

Other observations

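The words of 8 bases more frequent in member than in other promoters were sought among the 22368 words (either strand) that occur in the window from 250 bases before to 50 bases after the TSS of members. They were chosen for their difference from other promoters and are given as values with no test. TCCAATCA was the first, in 60 of 246 members (24.4%) and 1.498% of other protein-coding genes, and CCAATCAG the next, in 26.4% and 5.03%. The ZNF-named genes of other chromosomes had them in 8.78% and 12.6%. CAATCAGG, which overlaps both, was in 21.5% and 1.69%. CCGGAAGC, an extended ETS core, was in 23.6% and 4.92%, and AGGCCCCG in 24.4% and 6.92%. GTCACTCA, which lies upstream of the CCAAT letters in the windows of ZNF85, ZNF91, ZNF93 and ZNF98 shown above, was in 18.3% and 1.07%. The members share these words across neighbouring relatives, which do not count as independent promoters. TCCAATCA was in 24.6% of the open members and 28.2% of those without a peak, and CCAATCAG in 26.1% and 30.8%.

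AATGTAGT, whose reverse complement ACTACATT shares its first letters with the ACTACAA searched for ZNF143, was in 16.7% of members and 0.865% of other protein-coding genes.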
